A study of Mus musculus with 12 samples.

Results

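A set of 10 genes encoding heterogeneous nuclear ribonucleoproteins (hnRNPs) was followed with its transcripts that are annotated as substrates of nonsense-mediated mRNA decay (NMD). They were taken by symbol as Hnrnpa1, Hnrnpa2b1, Hnrnpa3, Hnrnpd, Hnrnpdl, Hnrnph1, Hnrnph3, Hnrnpk, Hnrnpl and Ptbp1, which encodes hnRNP I. They are 10 of the 31035 genes, and 104 of the 90624 transcripts, that could be joined to an annotation. RNA came from whole livers of 12 hFIX-R29X mice of 8 to 14 weeks, which have no mouse factor IX but a minigene of human factor IX that holds a nonsense codon, driven by the human transthyretin promoter and so expressed mainly in hepatocytes. All groups shared this genotype. They received DPBS, a scrambled Control-GalNAc-ASO at 15 mg/kg or Upf3b-GalNAc-ASO at 10 mg/kg, in 6 doses every 5 days, with livers taken 48 hours after the last dose. The labels list these amounts as weekly dosing, so the amount given at each injection is not settled by them. Each group held 4 mice, with replicates 1 and 2 female and replicates 3 and 4 male. GalNAc directs an antisense oligonucleotide (ASO) to hepatocytes, so the other cells of the liver may keep the target.

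HnRNPs bind nascent RNA in the nucleus and take part in splicing, export and stability of mRNA. Several of them limit their own amount by directing a splice event in their own pre-mRNA that brings in a premature stop codon, so that NMD removes the product. NMD recognises a stop codon that lies well upstream of an exon junction, where an exon junction complex is left on the mRNA, and UPF3B is a factor that links this complex to UPF1. The comparison asked whether the hnRNP genes, and in particular their NMD transcripts, differed in livers treated with the Upf3b ASO.

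Splice events found in NMD transcripts of 3 members are shown, because each one is a short exon that is skipped or taken in as a whole. The Ptbp1-207 and Ptbp1-201 transcripts skip a 34-base coding exon at chr10:79862014-79862047 (plus strand). Ptbp1-201 also skips a 78-base coding exon, which is not printed. Hnrnpk-203 skips a 44-base coding exon at chr13:58397753-58397796 (minus strand). Neither 34 nor 44 is a multiple of 3. Hnrnpl-213 instead takes in a 70-base exon at chr7:28817335-28817404 (plus strand), of which the part up to its stop codon, chr7:28817335-28817393, is printed. Sequences are those of GENCODE M21 transcripts on GRCm38, written 5′ to 3′ on the strand of the gene. Capitals mark the skipped exon in the first 2, with 15 bases of the coding transcript on either side, and the premature stop codon in the third.
Ptbp1 skipped exon: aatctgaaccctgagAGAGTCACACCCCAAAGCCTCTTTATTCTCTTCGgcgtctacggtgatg
Hnrnpk skipped exon: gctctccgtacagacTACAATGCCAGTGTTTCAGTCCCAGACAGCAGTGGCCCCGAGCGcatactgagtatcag
Hnrnpl added exon: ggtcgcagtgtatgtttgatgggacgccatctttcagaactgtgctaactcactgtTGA

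Stop codons of NMD transcripts are set here beside the stop codon of a full coding transcript of the same gene. In Ptbp1-207 and Hnrnpk-203 the stop codon follows the skipped exon printed above. In Hnrnpdl-205 it lies within a stretch of 146 bases that is absent from Hnrnpdl-202. Hnrnph3-204 skips a 139-base coding exon, which is not printed. The 27 bases before each stop codon are in lower case and the stop codon is in capitals. The premature stop codons lie at chr10:79862473-79862475 in Ptbp1-207, chr13:58396879-58396881 in Hnrnpk-203, chr5:100038593-100038595 in Hnrnpdl-205 and chr10:63018122-63018124 in Hnrnph3-204.
Ptbp1-207 (NMD): gaggcgtctacggtgatgtgcagcgggTGA
Ptbp1-216 (coding): cgagtgtccttttccaagtccaccatcTAG
Hnrnpk-203 (NMD): cgtacagaccatactgagtatcagtgcTGA
Hnrnpk-201 (coding): gtgaagcagtattctggaaagtttttcTAA
Hnrnpdl-205 (NMD): attctccgcgtgcccgctggaccccagTAG
Hnrnpdl-202 (coding): aatcaccagaacaattaccagccctacTAA
Hnrnph3-204 (NMD): agcgaccgggaccatatgatagaccaaTAG
Hnrnph3-201 (coding): agtggaggtggatggcgtgggatgtacTGA

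Of the 104 transcripts, 47 were annotated as protein_coding, 12 as nonsense_mediated_decay, 27 as retained_intron and 18 as processed_transcript, a class with no open reading frame. The 12 NMD transcripts belonged to 6 genes, with 4 for Hnrnpd, 3 for Ptbp1, 2 for Hnrnpdl and 1 each for Hnrnph3, Hnrnpk and Hnrnpl. In all 12 the stop codon lay more than 50 bases before the last exon junction, at distances from 101 bases in Hnrnpd-209 to 860 bases in Hnrnpdl-205. These positions come from the annotation, as the NMD label does, so they are no independent measurement in these livers. Hnrnpd-204, Hnrnpd-208, Hnrnpd-209 and Hnrnpdl-201 end at the same stop codon as the coding transcript of their gene. The coding Hnrnpd-211 and Hnrnpdl-202 already have 1 junction after that stop codon, at 30 and 21 bases. In the NMD transcripts an additional exon after the stop codon puts the last junction further downstream. In Hnrnpd-204 and Hnrnpd-208 this exon is chr5:99962098-99962204, of 107 bases. Of the 37 coding transcripts with an annotated stop codon and a junction, Hnrnpa2b1-202 was the 1 transcript whose stop codon lay more than 50 bases before the last junction, at 157 bases with 2 junctions after it. It is thus built like the NMD transcripts while annotated as coding. GENCODE M21 holds 2 further NMD transcripts each for Hnrnpa1, Hnrnpa2b1 and Hnrnpk, which were not analysed here.

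**Figure D1:**
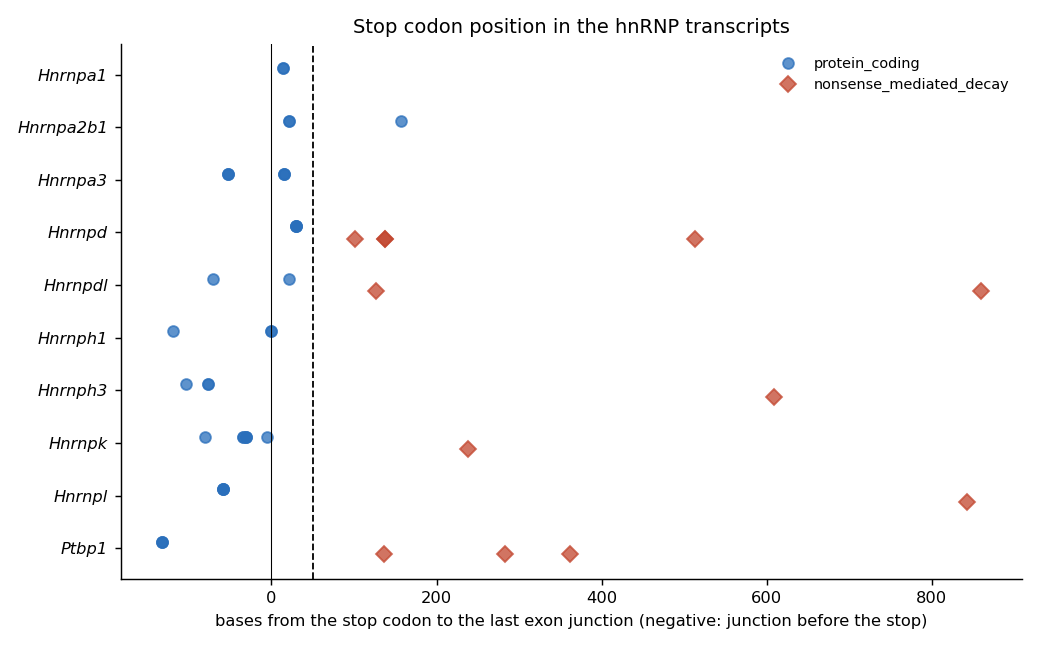
Distance in bases from the stop codon to the last exon junction for each coding (circles) and NMD (diamonds) transcript of the 10 genes, with the dashed line at 50 bases and overlapping points drawn darker. The 12 NMD transcripts lie between 101 and 860 bases, and Hnrnpa2b1-202 at 157 bases is the coding transcript to the right of the line.

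The libraries held from 13277892 to 20387682 estimated counts, with the 4 Upf3b ASO libraries from 13277892 to 17054313. Upf3b itself was at 8.58, 9.56, 7.93 and 12 CPM (counts scaled to a common library size) in the control ASO livers and at 1.58, 0.652, 1.0 and 0.662 CPM after the Upf3b ASO, so the target was low in each treated liver (log2 change -3.30 ± 0.27 SE, edgeR quasi-likelihood test, adjusted p = 7.46e-05). All 6 hepatocyte marker genes reached 1 CPM in every liver, with a summed level from 43098 to 93656 CPM. A control ASO liver, the male of replicate 3, stood apart. The sum of 6 acute phase genes (Saa1, Saa2, Saa3, Lcn2, Orm2 and Hp) was 19780 CPM there, against 1164 to 1631 CPM in the remaining 3 livers of that group, 1193 to 1354 CPM in the DPBS livers and 1149 to 1391 CPM in the Upf3b ASO livers. The sum of 5 endothelial genes was 170 CPM in the same liver against 326 to 411 CPM in the other 3. The control ASO female of replicate 1 had 2993 CPM of erythroid genes, while the other 11 livers ranged from 211 to 548 CPM. In bulk liver RNA, fewer cells of a type and less RNA per cell cannot be told apart.

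The male of replicate 3 bore on most of the members. In 7 of the 10 genes, namely Hnrnpa1, Hnrnpa3, Hnrnpd, Hnrnpdl, Hnrnpk, Hnrnpl and Ptbp1, this liver had the highest CPM of all 12, and in Hnrnph1 it had the lowest. The part of the acute phase state of that liver in these values was not tested. For gene levels and NMD shares against the control ASO group, values without it are also given, and for some of the single transcripts.

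No member passed the test at gene level. With all 12 livers, edgeR called 0 of the 10 genes for Upf3b ASO against control ASO at an adjusted p under 0.05, where it called 899 of 8840 genes tested, 10.2%. At an unadjusted p under 0.05 there were 2 of the 10, Hnrnpd and Hnrnph1, and 27.9% of all genes. The DESeq2 Wald test called 1 of the 10, Hnrnph1, and 17.9% of all genes, and limma on log2(TPM + 1) called 0. Of the 10, 5 were higher and 5 lower, with a median log2 change of -0.06 beside -0.02 over all genes tested. Against DPBS, 0 of 10 were called, with a background of 8.99%, and none had an unadjusted p under 0.05. For control ASO against DPBS it was also 0 of 10, with a background of 0.0113%, and again none at an unadjusted p under 0.05. DESeq2 and limma called 0 of the 10 in both of those comparisons. The 3 comparisons are not independent, since each group of livers enters 2 of them.

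**Figure D2:**
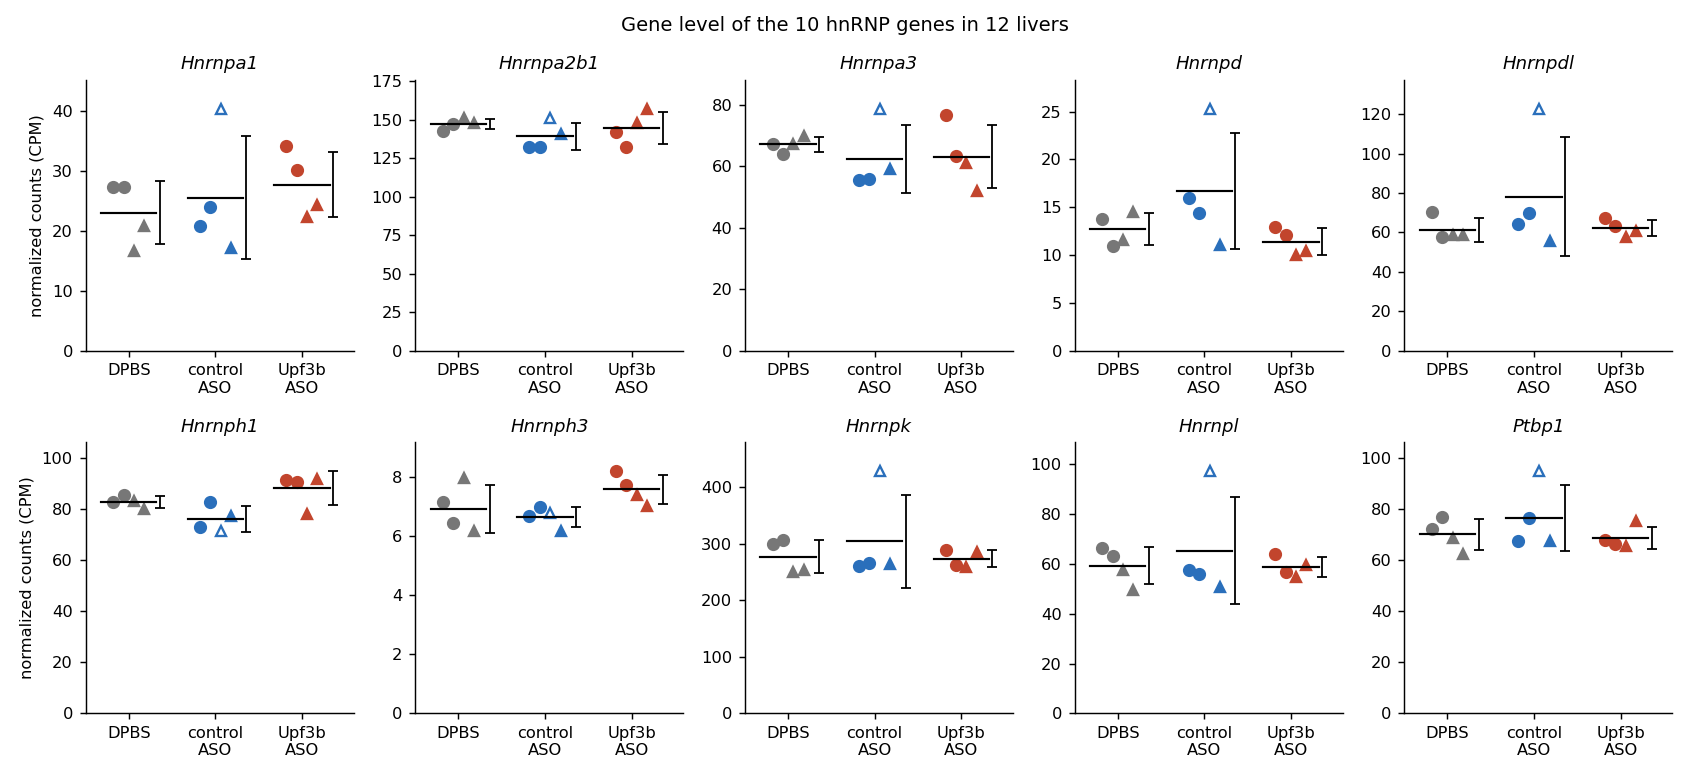
CPM of the 10 genes in each liver, by group, with circles for females, triangles for males, a horizontal line at the mean and an error bar of 1 SD (n = 4). The open triangle is the control ASO male of replicate 3, which is the highest liver in 7 of the 10 panels.

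The levels were compared between genes per length, as TPM (counts divided by transcript length and scaled to a common total). In the DPBS livers Hnrnpk had the highest level, 354 ± 67 TPM (SD, n = 4), with 283 to 428 TPM in single livers. Hnrnph1 at 100.1 ± 21 TPM, Ptbp1 at 89.4 ± 11 TPM and Hnrnpa2b1 at 76.8 ± 7.7 TPM followed, with overlapping ranges between neighbours. Hnrnpl had 49.2 ± 7.5 TPM and Hnrnpdl 41.7 ± 9.9 TPM, which also overlapped. Lower levels were those of Hnrnpa3 at 25.2 ± 2.0 TPM, Hnrnpa1 at 16.8 ± 5.7 TPM, Hnrnpd at 13.1 ± 4.0 TPM and Hnrnph3 at 9.21 ± 1.2 TPM, of which Hnrnpa1 and Hnrnpd, and Hnrnpd and Hnrnph3, overlapped. Behind these levels lay 94 to 142 counts per liver for Hnrnph3, 150 to 351 for Hnrnpd and 3878 to 6106 for Hnrnpk. A count on a short transcript weighs more in TPM, so the order of the genes depends on the unit. Mean CPM with DPBS was 277 for Hnrnpk, 147 for Hnrnpa2b1, 82.9 for Hnrnph1, 70.0 for Ptbp1 and 67.1 for Hnrnpa3.

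Hnrnpa1 and Hnrnpa2b1 encode the A/B type hnRNPs, which act in splicing, often as repressors. Hnrnpa1 was at 27.4, 27.3, 16.6 and 20.9 CPM in the DPBS livers, 20.8, 24.0, 40.4 and 17.2 CPM in the control ASO livers and 34.1, 30.1, 22.3 and 24.3 CPM after the Upf3b ASO. The groups overlapped, and the control ASO male of replicate 3 exceeded all the rest. Its log2 change was 0.09 ± 0.26 (95% interval -0.48 to 0.66, edgeR adjusted p = 0.855). Without that liver, each Upf3b ASO liver lay above the control ASO liver of the same sex, and the log2 change was 0.50 ± 0.095 (edgeR adjusted p = 0.00307), in a fit that called 2160 genes, 24.4% of those tested. Hnrnpa1 was the 1 member called there. The same fit gave 0.28 ± 0.086 against DPBS (edgeR adjusted p = 0.0316, background 28.4%), and a fit of those 2 groups alone gave 0.28 ± 0.087 (edgeR adjusted p = 0.0374, background 27.6%). Of the 31-base words of its transcripts 50% also occur in transcripts of other genes, so its counts are uncertain.

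Hnrnpa2b1 and Hnrnpa3 had group means close to each other. Hnrnpa2b1 had means of 147 ± 3.4 CPM with DPBS, 139 ± 9.0 CPM with control ASO and 145 ± 11 CPM with Upf3b ASO (SD, n = 4), a log2 change of 0.06 ± 0.066 with an interval from -0.09 to 0.20, or 0.09 ± 0.059 without the control ASO male of replicate 3. Hnrnpa3, which encodes another A/B type protein, had 67.1 ± 2.4, 62.3 ± 11 and 63.2 ± 10 CPM, and its interval ran from -0.28 to 0.33. Single livers of Hnrnpa3 ran from 55.7 to 78.7 CPM with control ASO, the highest being the male of replicate 3, and from 51.9 to 76.6 CPM with Upf3b ASO. Without that male the log2 change was 0.16 ± 0.10 (edgeR adjusted p = 0.260). Transcripts of other genes share 27.6% of the 31-base words of Hnrnpa3.

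Hnrnpd encodes AUF1, which binds AU-rich elements and promotes mRNA turnover, and Hnrnpdl encodes its close relative. Hnrnpd was at 13.7, 11, 11.6 and 14.5 CPM with DPBS, 16.0, 14.4, 25.3 and 11.1 CPM with control ASO and 13, 12.1, 10.0 and 10.5 CPM with Upf3b ASO. The treated livers overlapped the control ASO liver of replicate 4. The log2 change was -0.55 ± 0.23 (edgeR unadjusted p = 0.0354, adjusted p = 0.147). It was -0.24 ± 0.13 without the male of replicate 3 (edgeR adjusted p = 0.217) and -0.70 ± 0.20 without the male of replicate 4 (edgeR adjusted p = 0.0466, background 12%), so the call depended on which control liver was left out. Against DPBS the log2 difference was -0.16 ± 0.23. Hnrnpdl had 61.3 ± 6.0, 78.2 ± 30 and 62.2 ± 4.0 CPM in the 3 groups, in the order above, and its log2 change of -0.32 ± 0.21 against control ASO became 0.01 ± 0.078 without the male of replicate 3, which alone was at 123 CPM.

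Hnrnph1 and Hnrnph3 encode proteins that bind G-rich stretches of RNA. Hnrnph1 was at 82.7, 85.7, 83.2 and 80.0 CPM with DPBS, 73.0, 82.7, 71.6 and 77.3 CPM with control ASO and 91.7, 90.8, 78.3 and 92.0 CPM with Upf3b ASO. Of the treated livers 3 lay above all 8 others, and the male of replicate 3 did not. The log2 change was 0.21 ± 0.073 (edgeR unadjusted p = 0.0152, adjusted p = 0.0918) and 0.20 ± 0.072 without the control ASO male of replicate 3 (edgeR adjusted p = 0.0660). DESeq2 gave the same size, 0.21 ± 0.076, with an adjusted p = 0.0405. Against DPBS the difference was 0.09 ± 0.073. Hnrnph3 had 6.16 to 6.96 CPM with control ASO and 7.02 to 8.18 CPM with Upf3b ASO, which did not overlap, but 6.15 to 7.94 CPM with DPBS, and its log2 change was 0.19 ± 0.11 (edgeR adjusted p = 0.295), or 0.22 ± 0.12 without the control ASO male of replicate 3.

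Hnrnpk encodes a KH-domain protein that binds C-rich RNA, Hnrnpl one that binds CA repeats, and Ptbp1 one that binds pyrimidine tracts and represses exons. Hnrnpk was at 260, 266, 428 and 264 CPM with control ASO and at 258 to 289 CPM with Upf3b ASO. Hnrnpl had 57.6, 55.7, 97.0 and 50.6 CPM against 54.8 to 64.0 CPM, and Ptbp1 67.3, 76.3, 94.6 and 67.5 CPM against 65.6 to 75 CPM. All 3 had a log2 change of -0.15, with SE from 0.12 to 0.19. Without the male of replicate 3 the changes were 0.08 ± 0.080, 0.14 ± 0.080 and -0.02 ± 0.084, and none was called. In that fit 8 of the 10 members were higher under Upf3b ASO and 2 lower, with a median log2 change of 0.11 beside 0.01 over all genes.

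**Figure D3:**
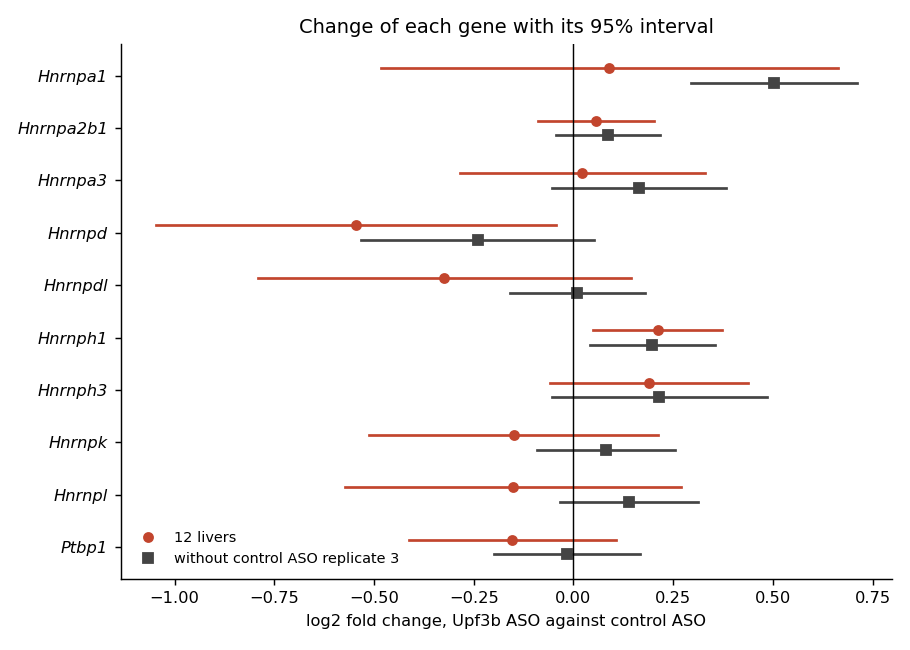
Log2 fold change of each gene for Upf3b ASO against control ASO, with 95% intervals from edgeR, for all 12 livers (circles) and without the control ASO male of replicate 3 (squares). Hnrnpa1 moves from 0.09 to 0.50 and Hnrnpdl from -0.32 to 0.01 when that liver is left out.

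Sex made no difference that passed the test. For males against females 0 of 10 members were called by edgeR and 0 had an unadjusted p under 0.05, where 9.98% of all genes were called. The treatment difference between the sexes was called for 0 of 10 members and for 0% of all genes, with Hnrnpa3 the 1 member at an unadjusted p under 0.05 (log2 difference -0.61 ± 0.22, males minus females, edgeR adjusted p = 0.594). Of the 10 differences 9 were negative, and the control ASO male of replicate 3 enters each of them.

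The NMD transcripts made up 7.56 ± 0.90% of the summed TPM of the 10 genes with DPBS, 7.85 ± 0.83% with control ASO and 8.02 ± 0.93% with Upf3b ASO (SD, n = 4), so the means lay within 1 SD of each other. By gene, the share on NMD transcripts was tested for 6 members by limma on the log2 ratio of NMD to other TPM. It called 0 of 6 for Upf3b ASO against control ASO, where it called 2 of 1476 genes, 0.136% (0 genes with a replicate block), and 0 of 6 had an unadjusted p under 0.05. The log2 ratio was higher in 5 of the 6 and lower in 1, with a median of 0.46 beside 0.06 over all genes tested. Without the male of replicate 3 the median was 0.20, with 4 higher and 2 lower. Against DPBS 0 of 6 were called, with a background of 0.271%, and for control ASO against DPBS 0 of 6, with a background of 0%. In each of these, 0 of 6 had an unadjusted p under 0.05.

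Ptbp1 is the textbook case, in which its protein represses the 34-base exon printed above. Its share on NMD transcripts was 8.86, 10.4, 13.8 and 11.3% with DPBS, 11.6, 9.80, 3.30 and 10.9% with control ASO and 12.2, 11.5, 12.6 and 10.8% with Upf3b ASO. The low value was the male of replicate 3. The log2 ratio differed by 0.59 ± 0.39 (limma adjusted p = 0.764) and by 0.12 ± 0.23 without that liver. All of it came from Ptbp1-207, at 8.27, 10.7, 11.3 and 8.89 TPM with DPBS, 12.4, 10.3, 3.12 and 9.58 TPM with control ASO and 12, 11.9, 9.47 and 10.3 TPM with Upf3b ASO. These groups overlapped, with a log2 change of 0.34 ± 0.31 (edgeR adjusted p = 0.748), or 0.06 ± 0.19 without the male of replicate 3. Ptbp1-207 has no 31-base word of its own, and 15.4% of its words occur in other genes, so its counts too rest on how Salmon divided shared reads. Ptbp1-201 and Ptbp1-212 had 0 counts in all 12 livers. The coding transcript with the highest TPM, the 375-base fragment Ptbp1-209, had 22.9, 34.5, 24.9 and 25.7 TPM with DPBS, 27.2, 28.2, 29.1 and 27 TPM with control ASO and 31.7, 27.4, 21.5 and 33.3 TPM with Upf3b ASO, also without separation.

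In Hnrnpk the NMD transcript skips the 44-base exon printed above. The share of Hnrnpk-203, its NMD transcript with values here, was 7.10, 4.47, 5.17 and 6.82% with DPBS, 4.99, 5.67, 4.60 and 5.14% with control ASO and 7.97, 6.74, 6.78 and 5.23% with Upf3b ASO. Of the 4 treated livers 3 lay above every control ASO liver, but DPBS livers reached 7.10%. The log2 ratio differed by 0.40 ± 0.22 (95% interval -0.08 to 0.88, limma unadjusted p = 0.0962, adjusted p = 0.692), and by 0.37 ± 0.24 without the control ASO male of replicate 3. In TPM, Hnrnpk-203 was at 30.4, 17.5, 14.6 and 21.4 with DPBS, 18.1, 18.8, 14.4 and 15.7 with control ASO and 29.9, 25.4, 20.7 and 14.9 with Upf3b ASO, a log2 change of 0.38 ± 0.19 (edgeR adjusted p = 0.482). Its most abundant coding transcript, Hnrnpk-208, was at 88.7, 69.1, 52.7 and 60.8 TPM with DPBS, 74.5, 60.3, 40.7 and 54.3 TPM with control ASO and 56.9, 61.3, 52.9 and 63.5 TPM with Upf3b ASO, a log2 change of 0.04 ± 0.15. Other genes share 78.8% of the 31-base words of Hnrnpk-203 and 71.1% of those of Hnrnpk-208. Hnrnpk-208 is a 900-base fragment whose coding sequence has no annotated stop codon.

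Hnrnpl-213, with the added exon printed above, held 8.98, 7.39, 3.54 and 10.5% of the TPM of Hnrnpl with DPBS, 7.83, 5.47, 11.6 and 0.213% with control ASO and 13.6, 6.83, 7.90 and 7.74% with Upf3b ASO. The single low value was the control ASO male of replicate 4, in which the transcript had an estimated 2.39 counts. The log2 ratio differed by 1.22 ± 0.84 (limma adjusted p = 0.764) and by 1.99 ± 0.74 without the male of replicate 3 (limma unadjusted p = 0.0229, adjusted p = 0.615). In TPM, Hnrnpl-213 was at 5.24, 3.87, 1.56 and 4.44 with DPBS, 3.95, 2.63, 7.55 and 0.0908 with control ASO and 7.66, 3.31, 3.13 and 3.57 with Upf3b ASO, a log2 change of 0.17 ± 0.87 that became 1.56 ± 0.83 without the male of replicate 3 (edgeR adjusted p = 0.50). None of its 31-base words is particular to it, so its counts rest on how Salmon divided reads that fit several transcripts of the gene. The added exon is also a whole exon of Hnrnpl-207, which is annotated as retained_intron and counted in that share. With all 12 livers, Hnrnpl-207 was lower under Upf3b ASO than under control ASO at an edgeR unadjusted p under 0.05, but was not called. Without the male of replicate 3, Hnrnpl-207 had a log2 change of -0.68 ± 0.43 (edgeR adjusted p = 0.586). The coding Hnrnpl-201 was at 10.1, 8.82, 7.98 and 11.2 TPM with DPBS, 9.87, 6.80, 6.18 and 4.12 TPM with control ASO and 10.5, 12.5, 9.61 and 7.23 TPM with Upf3b ASO (log2 change 0.54 ± 0.20, edgeR unadjusted p = 0.0239, adjusted p = 0.340).

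Hnrnpd and Hnrnpdl carried the largest annotated NMD shares. For Hnrnpd the share of TPM was 38.1 to 64.3% with DPBS, 38.2 to 53.5% with control ASO and 42.3 to 58.3% with Upf3b ASO. Its share of counts was lower, 22.5 to 37.8%, 24.3 to 32.2% and 26.8 to 35.0% in these groups. The log2 ratio of TPM differed by 0.17 ± 0.38 (limma adjusted p = 0.945). Without the control ASO male of replicate 3 the direction turned, at -0.03 ± 0.39. Hnrnpd-204, its most abundant NMD transcript, was at 3.94, 2.14, 2.57 and 4.82 TPM with DPBS, 6.35, 5.55, 7.93 and 3.18 TPM with control ASO and 2.89, 3.31, 3.21 and 1.99 TPM with Upf3b ASO. It was lower under Upf3b ASO than under control ASO, by -1.07 ± 0.38 on the log2 scale (edgeR unadjusted p = 0.0180, adjusted p = 0.307; -0.75 ± 0.37 without that male), and at the level of the DPBS livers (-0.19 ± 0.38). Its sequence starts within the coding region and it too has no 31-base word of its own. The coding Hnrnpd-210 was at 4.35, 0.496, 1.90 and 2.38 TPM with DPBS, 2.68, 4.68, 8.57 and 2.81 TPM with control ASO and 2.83, 2.04, 1.06 and 1.34 TPM with Upf3b ASO (log2 change -1.43 ± 0.70, edgeR adjusted p = 0.481). Hnrnpd-210 is a 493-base fragment whose coding sequence has no annotated stop codon.

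For Hnrnpdl the NMD share was 47.5, 39.1, 38.0 and 41.6% with DPBS, 45.2, 42.3, 48.5 and 39.0% with control ASO and 41.4, 35.6, 45.0 and 44.1% with Upf3b ASO, a difference in log2 ratio of -0.13 ± 0.19 (limma adjusted p = 0.892), or -0.04 ± 0.20 without the control ASO male of replicate 3. The groups overlapped throughout, and the share of counts was lower, from 28.2 to 38.9% over all livers. Hnrnpdl-205 was at 25.6, 15.0, 11 and 14.4 TPM with DPBS, 19.3, 18.2, 25.5 and 12.9 TPM with control ASO and 19.7, 15.4, 14.3 and 14.4 TPM with Upf3b ASO (log2 change -0.32 ± 0.28, and 0.05 ± 0.19 without that male). The coding Hnrnpdl-207 was at 14.9, 14.0, 11.8 and 13 TPM with DPBS, 14.9, 16.5, 13.2 and 12.8 TPM with control ASO and 16.8, 17.7, 9.31 and 11.6 TPM with Upf3b ASO (log2 change -0.11 ± 0.14). Neither transcript passed the test.

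Hnrnph3-204 was near the limit of detection, with an estimated 12.9 counts per liver on average and 29.5 at most. Its share of Hnrnph3 TPM ran from 0 to 10.0% with DPBS, from near 0 to 12.3% with control ASO and from near 0 to 18.2% with Upf3b ASO, so the difference in log2 ratio of 0.51 ± 1.25 was not resolved at this depth, nor was that of 0.27 ± 1.41 without the control ASO male of replicate 3. In TPM it was at 0, 0.870, 0.454 and 0.0875 with DPBS, at 1.18, near 0, 0.172 and 0.903 with control ASO and at 0.817, 1.28, 1.42 and near 0 with Upf3b ASO. The coding Hnrnph3-203 was at 3.13, 2.16, 2.53 and 2.73 TPM with DPBS, 2.44, 2.32, 3.19 and 2.63 TPM with control ASO and 3.18, 4.12, 1.98 and 2.59 TPM with Upf3b ASO (log2 change 0.13 ± 0.33). Though annotated as coding, Hnrnph3-203 has a reading frame of 71 codons, as Hnrnph3-204 has, against 346 in Hnrnph3-201.

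**Figure D4:**
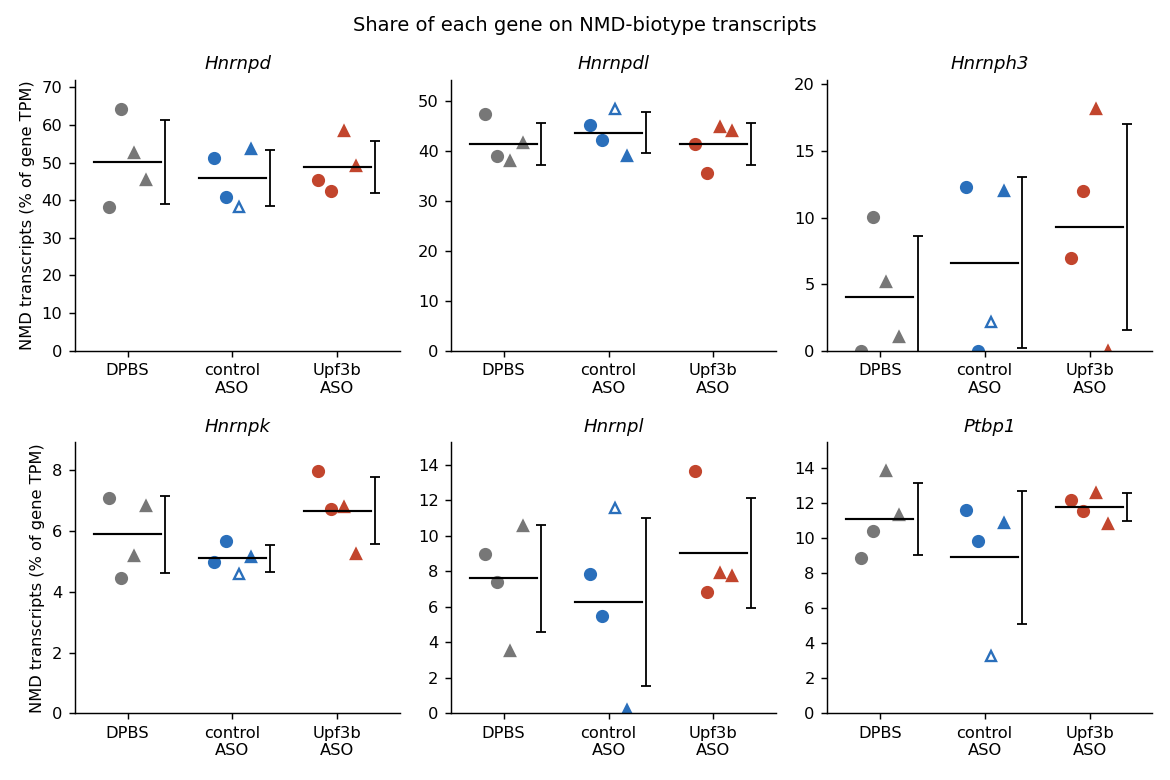
Percent of each gene's TPM on transcripts of the NMD biotype in the 12 livers, with circles for females, triangles for males, an open triangle for the control ASO male of replicate 3, and the mean with an error bar of 1 SD (n = 4), where the bar of Hnrnph3 with DPBS is cut at 0. The 3 groups overlap in all 6 genes.

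At the level of single transcripts, 83 of the 104 had enough counts to be tested, 37 coding, 9 NMD, 24 retained intron and 13 processed transcripts. EdgeR called 0 of the 83 for Upf3b ASO against control ASO, with a background of 0.747% of 37090 transcripts, which is 277 transcripts and 90 with a replicate block. At an unadjusted p under 0.05 there were 7 of the 83, 8.43%, beside 11.5% of all transcripts. DESeq2 called 3 of them, Hnrnpa2b1-202, Hnrnpl-209 and Hnrnpdl-203, with a background of 5.55%, and limma on log2(TPM + 1) called 0. DESeq2 gave no adjusted p for 8 of the 83 here and for 16 against DPBS. Against DPBS 0 of 83 were called by each of these tools, with an edgeR background of 0.752% and 1 member transcript at an unadjusted p under 0.05. For control ASO against DPBS it was 0 of 83 by each, with an edgeR background of 0%, and 2 at an unadjusted p under 0.05. Of the 9 NMD transcripts 5 were higher and 4 lower under Upf3b ASO than under control ASO, with a median log2 change of 0.17. The medians were -0.11 for the coding and -0.23 for the retained intron transcripts, beside -0.03 over all transcripts tested. Over the 83 the median was -0.10, and 0.05 without the control ASO male of replicate 3. Against DPBS 8 of the 9 NMD transcripts were higher and 1 lower, with a median of 0.14 and 0 at an unadjusted p under 0.05. The median over all transcripts tested was -0.01 there. Some of the 9 belong to the same gene and share reads, so their directions are not independent. Of the coding transcripts 18 were higher and 19 lower in that comparison. For control ASO against DPBS 6 of the 9 NMD transcripts were higher and 3 lower.

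**Figure D5:**
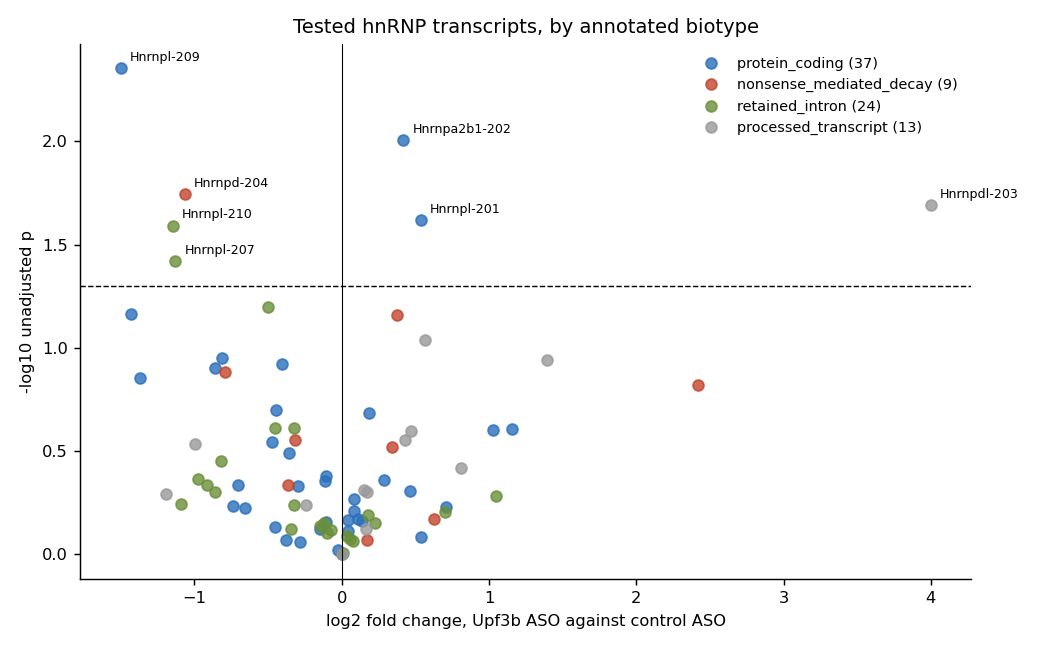
Log2 fold change for Upf3b ASO against control ASO and -log10 of the unadjusted edgeR p (model fitted across all transcripts) for the 83 tested transcripts, coloured by biotype, with a dashed line at the threshold of 0.05. The 7 transcripts above the line are labelled, and 1 of them, Hnrnpd-204, is an NMD transcript, on the side of lower values.

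The coding transcript built like an NMD substrate, Hnrnpa2b1-202, was at 40.9, 32.8, 37.1 and 37.3 TPM with DPBS, 36.2, 34.4, 21.6 and 32.3 TPM with control ASO and 39.0, 44.2, 39.3 and 44.8 TPM with Upf3b ASO. In TPM every treated liver lay above every control ASO liver, while 1 DPBS liver lay within the treated range. The log2 change was 0.42 ± 0.13 (95% interval 0.12 to 0.71, edgeR unadjusted p = 0.00988, adjusted p = 0.244), 0.31 ± 0.10 without the control ASO male of replicate 3 (edgeR adjusted p = 0.216) and 0.43 ± 0.14 by DESeq2 (adjusted p = 0.0409). Against DPBS it was 0.22 ± 0.13. The TPM of the whole gene also separated control ASO, at 63.3 to 72.8, from Upf3b ASO, at 73.0 to 79.9. Its CPM overlapped, at 132 to 151 and 132 to 157, so a separation in TPM here depends on the scaling of the livers. Of the 31-base words of Hnrnpa2b1-202, 10.1% are particular to it. GENCODE M21 gives it support level 5, the lowest grade of transcript evidence, and Hnrnpa2b1-201 level 1. The other 2 coding transcripts of the gene, whose stop codons lie 21 bases before the last junction, had log2 changes of -0.36 ± 0.34 (Hnrnpa2b1-201) and 0.04 ± 0.096 (Hnrnpa2b1-203). The sequence quantified as Hnrnpa2b1-203 was 4086 bases long, against 1728 in GENCODE M21, so a part of its reads may be assigned otherwise with the later annotation. The stop codon of Hnrnpa2b1-202, at chr6:51463432-51463434, is shown with the 27 bases before it.
Hnrnpa2b1-202 (coding): ggtggctatggtggaaggagcagatatTAA

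The other transcripts with calls by DESeq2 were chosen for display after their values were seen. Hnrnpl-209, a coding transcript with an incomplete start, was at 7.87, 6.58, 2.34 and 3.23 TPM with DPBS, 4.98, 7.91, 9.80 and 4.96 TPM with control ASO and 3.30, 2.57, 1.78 and 2.82 TPM with Upf3b ASO. Its values after the Upf3b ASO lay below all those after control ASO, with a log2 change of -1.50 ± 0.41 (edgeR adjusted p = 0.171, DESeq2 adjusted p = 0.0160; -1.04 ± 0.33 without the control ASO male of replicate 3), but overlapped those of the DPBS males. Hnrnpdl-203, a processed transcript of 2 exons, had an estimated 24.3, 2.51, 0 and near 0 counts with control ASO, 103, 30.6, 11.9 and 64.8 with Upf3b ASO and 94.5, 21, near 0 and 31.2 with DPBS. Its fitted log2 changes, 4.00 ± 1.45 by edgeR and 4.45 ± 1.42 by DESeq2, rest on livers without counts and are no measure of its size.

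The most abundant coding transcripts of Hnrnpa1, Hnrnpa3 and Hnrnph1 overlapped between all groups. Hnrnpa1-202 was at 19.3, 19.1, 7.30 and 11.6 TPM with DPBS, 13, 14.9, 15.9 and 9.65 TPM with control ASO and 20.4, 20.4, 11.3 and 11.2 TPM with Upf3b ASO (log2 change 0.11 ± 0.26, and 0.45 ± 0.15 without the control ASO male of replicate 3, edgeR adjusted p = 0.200). The other coding transcript of the gene, Hnrnpa1-201, named here after its values were seen, had 3.14 to 5.32 TPM with Upf3b ASO, above the 1.70 to 2.90 TPM with DPBS, but overlapped control ASO at 1.70 to 4.73 TPM. Its log2 difference from DPBS was 0.67 ± 0.35 (edgeR adjusted p = 0.645). Hnrnpa3-203 was at 14.3, 12.3, 10.4 and 12.2 TPM with DPBS, 10.4, 10.4, 10.4 and 9.90 TPM with control ASO and 14.9, 13, 9.81 and 8.07 TPM with Upf3b ASO (log2 change 0.08 ± 0.13). In both genes the female livers of the Upf3b ASO group had the higher values. Hnrnph1-202 was at 9.12, 6.54, 2.97 and 6.83 TPM with DPBS, 1.40, 8.30, 0 and 4.08 TPM with control ASO and 7.85, 12.3, 2.45 and 7.24 TPM with Upf3b ASO (log2 change 1.16 ± 0.94). Of the TPM of Hnrnph1, at least 90.9% in each liver lay on its 15 processed transcripts, which include short fragments such as the 159-base Hnrnph1-214, at 26.7 TPM from an average of 20.2 counts.

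Transcripts with a retained intron made up 24.4 ± 1.8% of the summed TPM of the 10 genes with DPBS, 25.4 ± 1.2% with control ASO and 23.1 ± 1.9% with Upf3b ASO. Limma called 0 of 6 members for Upf3b ASO against control ASO, with a background of 0.0293% of 3418 genes (1 gene, and 0 with a replicate block), and 1 of 6, Hnrnpl, had an unadjusted p under 0.05. The log2 ratio was lower in all 6, with a median of -0.26 beside -0.13 over all genes tested. Hnrnpl had 37.5, 36.1, 54.7 and 39.8% with DPBS, 39.8, 51.2, 58.9 and 46.5% with control ASO and 43.3, 36, 36 and 33.3% with Upf3b ASO. The difference was -0.71 ± 0.27 (limma unadjusted p = 0.0212, adjusted p = 0.447) and -0.54 ± 0.27 without the male of replicate 3. The transcripts in this share include Hnrnpl-207, which holds the same added exon as the NMD transcript Hnrnpl-213. Hnrnpk was steadier, with 38.0 ± 2.2, 38.6 ± 1.0 and 38.2 ± 3.4% in the 3 groups. Against DPBS 0 of 6 were called, with a background of 0.0293%, and for control ASO against DPBS 0 of 6, with a background of 0%. In both, 0 of 6 had an unadjusted p under 0.05.

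The other hnRNP family genes were counted for comparison. Of the 22 on the list 21 were tested, and edgeR called 1 for Upf3b ASO against control ASO, Tardbp, which rose. The background was 10.2% of all genes tested. Against DPBS 1 of 21 was called, with a background of 8.99%, so the list held no more calls than that background. Tardbp encodes TDP-43, known to limit its own mRNA by processing of its 3′ end. It was at 45.3, 50.9, 43.0 and 50.6 CPM with control ASO and at 65.7, 64.6, 68.5 and 66.4 CPM with Upf3b ASO, while the DPBS livers ranged from 47.6 to 55.8 CPM. The treated livers lay above all 8 others, with a log2 change of 0.48 ± 0.082 (edgeR adjusted p = 0.00491), and 0.39 ± 0.082 against DPBS (edgeR adjusted p = 0.0137). Of the 21 genes 6 were higher and 15 lower against control ASO, with a median log2 change of -0.11.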

How the data were processed

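Total RNA from livers was sequenced on an Illumina HiSeq2500, and base calls were converted with bcl2fastq 2.17.1.14. The authors quantified transcripts with Salmon 0.7.2 against Ensembl cDNA (GRCm38.p4 per the labels' processing notes) and deposited estimated counts and TPM per transcript for each liver. Salmon divides reads that fit several transcripts, so isoforms with few bases of their own are uncertain. Here 90624 of 92468 transcripts (98.01%) were joined to GENCODE M21 for gene symbol and biotype, holding 79.68 to 95.87% of the TPM of a liver, and estimated counts were rounded after summing per gene.

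Counts were tested with edgeR 4.0.16 (quasi-likelihood, group and sex, all 12 livers, R 4.3.3) for genes at 5 TPM or more, and transcripts at 10 counts or more, in at least 4 livers. Shares were tested with limma 3.58.1 on the log2 ratio of TPM + 0.1. P-values were adjusted by Benjamini-Hochberg over all features. DESeq2 1.42.0 and limma on log2(TPM + 1) were alternatives. Values ± are SE for fold changes and SD for levels. The 10 members are all described, with single-liver values for the most abundant NMD and coding transcript of each gene. Members and lists were chosen with earlier results of these data known. Same-numbered livers deviated together (correlations of 0.198 to 0.611 in 12 of 12 pairs), and from -0.114 to 0.182 after sex was removed, as the numbers carry sex. No livers were found to be copies of each other. The p-values measure the spread between these mice. The scripts were tested on simulated data. Upf1-ASO livers were not analysed here.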

Additional observations from a re-analysis of the deposited data

Results flagged for a closer look

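In 69 groups of 4 livers (23 measures), 7 had a liver that lay far from the other 3 by Dixon's criterion, where chance gives about 1 in 20, or 3.45 groups. Of these, 3 were the control ASO male of replicate 3, the liver with the high acute phase genes: Hnrnpa3 at 78.7 CPM against 55.7 to 59.0, Hnrnpk at 428 CPM against 260 to 266 and Hnrnpl at 97.0 CPM against 50.6 to 57.6. Hnrnpdl was at 70.3 CPM in the DPBS female of replicate 1, against 57.6 to 58.8 in the others. Hnrnph1 was at 78.3 CPM in the Upf3b ASO male of replicate 3, against 90.8 to 92.1 in the others. The NMD share of Hnrnpl was 13.6% in the Upf3b ASO female of replicate 1, against 6.83 to 7.90%. The retained intron share of Hnrnpd was 0% in the Upf3b ASO male of replicate 3, against 8.93 to 10.0%. The part of any technical difference in these values was not tested.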

How the results depend on the processing

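Over 135 values of the members and 2844 refits, 2782 kept their side of the threshold and stayed within the spread, 54 moved, 8 became called and 0 reversed among called values, while 127 changed sign without being called. Members called at gene level against control ASO were 1 with DESeq2 and 0 to 1 when single livers were left out, against DPBS 1 in a fit of the 2 groups alone and 0 to 1 on leaving out a liver, and at transcript level 3 with DESeq2. For all genes, 899 calls against control ASO became 1582 with DESeq2, 354 and 340 with limma on log2(TPM + 1) and log2(TPM + 0.1), 522 without sex, 353 in a fit of 2 groups, 343 at an adjusted p under 0.01 and 437 to 2160 on leaving out a liver, the highest without control ASO replicate 3. For all transcripts, 277 calls became 426 at a minimum of 30 counts, 1659 with DESeq2, 173 and 151 with limma, 142 without sex, 29 in a fit of 2 groups, 56 at an adjusted p under 0.01 and 82 to 793 on leaving out a liver. The 2 genes called for the NMD share became 1 against coding transcripts only, 0 in a fit of 2 groups and 0 to 3 on leaving out a liver. The 1 gene called for the retained intron share became 2 with shares of counts, 3 with TPM + 1, 0 against coding transcripts only, 0 in a fit of 2 groups and 0 to 2 on leaving out a liver. The cause was not tested. With the replicate block, 695 genes, 90 transcripts, 0 genes for the NMD share and 0 for the retained intron share were called against control ASO, and 0 members at each level; it changed no call on a member. Depth limits the transcripts with few counts, such as Hnrnph3-204.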
